A study of Mus musculus with 2 samples.

Results

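The genes described here are 36 genes of the lysosome and of autophagy, chosen by symbol from a fixed list and found in all 36 cases among the 55468 rows of the deposited table. The list was chosen with earlier results of these data known, so its counts beside those of all genes only describe it. The 36 genes were measured in 2 libraries of the mouse pancreatic cancer line KPC2, both labelled as pancreas. The gemcitabine-resistant library came from KPC2 cells maintained in medium with 260 ng/mL gemcitabine after long-term exposure to it. The wild type library came from KPC2 cells that received no drug. All cells grew in DMEM with fetal bovine serum, GlutaMAX and antibiotics. Gemcitabine is a deoxycytidine analogue that is built into DNA and blocks its synthesis. There was 1 library per group and no replicate, so no difference below could be tested between the conditions, and continued contact with the drug and an acquired state of the cells cannot be told apart. In bulk RNA, fewer cells with a transcript and less of it per cell cannot be told apart either.

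The lysosome is an acidic compartment in which proteases, glycosidases and lipases digest material from endocytosis and from autophagy. In autophagy a membrane decorated with lipid-linked ATG8 proteins encloses cytoplasmic cargo, which receptors such as p62 tether to it, and then fuses with the lysosome. Transcription factors of the MiT/TFE family, among them TFEB, TFE3 and MITF, bind the CLEAR element in promoters of many lysosomal genes. They are held in the cytoplasm when the kinase complex mTORC1 is active on the lysosomal surface. Pancreatic cancers are known for a high demand on autophagy and on the lysosome.

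Values were read as FPKM, fragments scaled by transcript length and library depth, as the authors deposited them, though the header names no unit. Genes that reached 1 FPKM in either library, 12193 in all, were counted as measured. The log2 ratio is the difference, resistant minus wild type, of log2(FPKM + 1), so differences between low values come out too small. A gene past 1 in size on that scale is called at least 2-fold higher or lower. Low values fell on steps of whole fragments, so that 1 FPKM on a 2 kb transcript stood for about 42.6 fragments in the resistant and 44.0 in the wild type library. The 95% intervals of FPKM ratios below are exact binomial intervals on the fragments that each value implies for the gene's shortest annotated coding transcript. They cover counting error only, not the spread between cultures.

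Of the 36 genes 35 were measured, and Mitf alone was under 1 FPKM in both libraries. Past the 2-fold line on the higher side in resistant cells were 7 of the 35, which is 20.0%, against 7.90% of all measured genes. None of the 35 was at least 2-fold lower, against 8.37% of all measured genes. The 7 were Sqstm1, Neu1, Cd68, Hexa, Gabarapl1, Gaa and Atp6v1h, and 28 lay within 2-fold. The line falls between Atp6v1h, at a log2 ratio of 1.03, and Wipi1, at 0.90. The median log2 ratio was 0.35 over the 35 genes and 0.02 over all measured genes. Above 0 were 31 of the 35, against 50.8% of all measured genes. As the list was chosen with earlier results known, these contrasts are no independent evidence of an excess. The counting interval of the FPKM ratio lay above 1 for 24 of the 35 and spanned 1 for 8. It lay below 1 for 3, Lamp1, Map1lc3b and Tfeb. The matching shares of all measured genes were not counted. These intervals take the deposited scale of the libraries as given, so these counts hold on that scale only. In the authors' deposited table, whose own test set 1 library against the other, none of the 36 was called, against 0.404% of all genes they tested. The lowest q-value of the 36 in the authors' deposited table was 0.263, for Sqstm1.

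The scale of the libraries bears on the smaller differences. The deposited values summed to 1197279 FPKM in the resistant and 998508 FPKM in the wild type library, and the 10 rows with the most signal, small non-coding and mitochondrial ribosomal RNAs, held 36.4% and 39.3% of these sums. With each library rescaled to a sum of 1000000, the median of all measured genes was -0.23 and that of the 35 genes 0.11, so the gap between them, 0.33, was the same on both scales. On that scale the shares of all measured genes past the 2-fold line were 5.17% on the higher and 12.8% on the lower side, and 5 of the 35 were higher and none lower. There 19 of the 35 genes were above 0 and 12 changed sign, namely Becn1, Ctsa, Ulk1, Npc1, Glb1, Nbr1, Tfe3, Npc2, Gabarapl2, Optn, Atp6v0d1 and Ctsd. On either scale 31 of the 35 lay above the median of all measured genes, a count that the common factor could hardly change either. The counting intervals were not recomputed on the rescaled values.

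**Figure D1:**
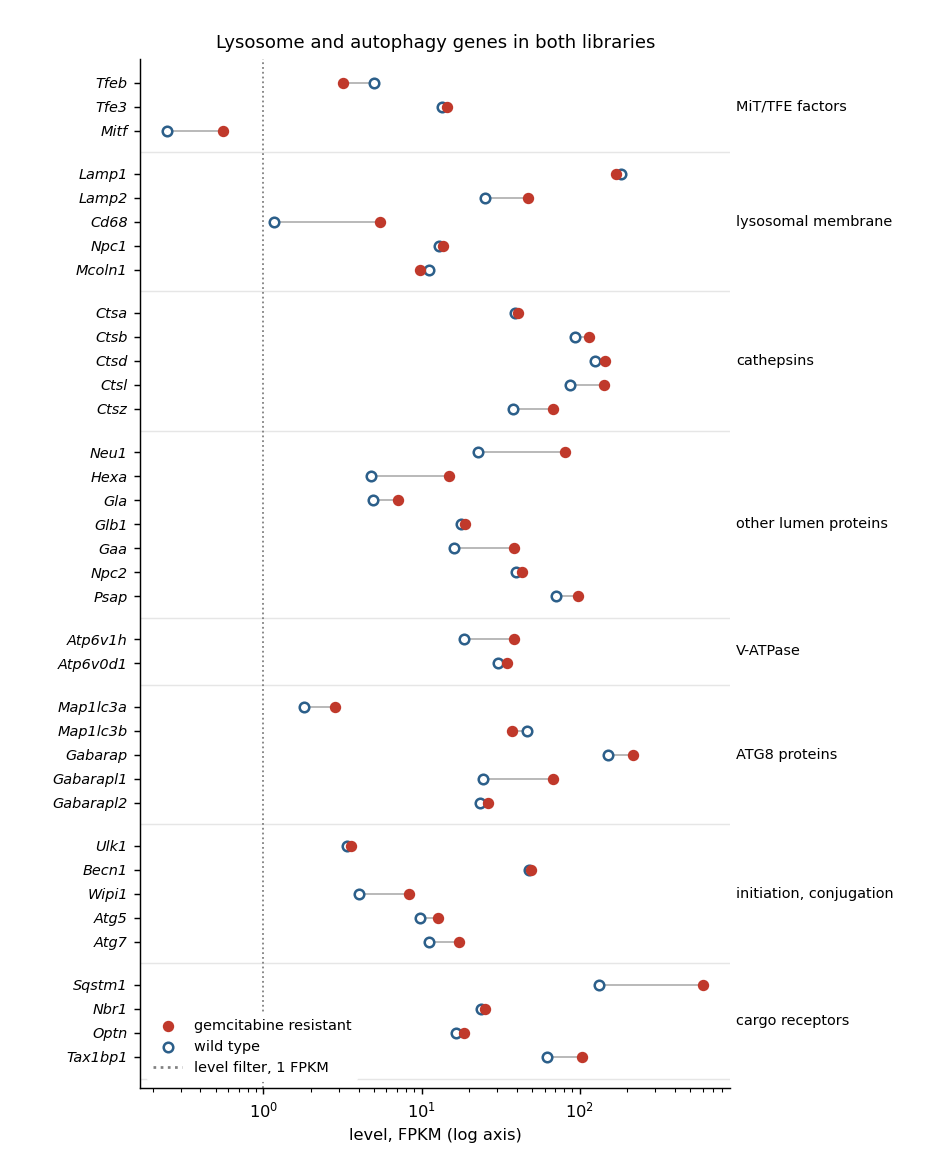
Level in FPKM (log axis) of the 36 lysosome and autophagy genes in the gemcitabine-resistant library (filled red) and the wild type library (open blue), by role, 1 point per library. The widest gaps are those of Cd68, Sqstm1 and Neu1, and Tfeb, Lamp1, Mcoln1 and Map1lc3b are the 4 genes with the resistant point on the left.

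The regulators come first. Tfe3 was the most abundant transcript of the 3 MiT/TFE genes, at 14.5 FPKM in resistant and 13.5 FPKM in wild type cells. Tfeb, which encodes the factor best known for switching on lysosomal genes, stood at 3.18 FPKM in resistant and 5.02 FPKM in wild type cells, a log2 ratio of -0.53 and the lowest of the 35. Its FPKM ratio was 0.63, with a counting interval of 0.50 to 0.79. Mitf, the family member of melanocytes and osteoclasts, stood at 0.56 FPKM in resistant and 0.25 FPKM in wild type cells, values that rest on about 12 and 5 fragments. The sum over the 3 genes was nearly the same in both libraries, 18.3 FPKM in resistant and 18.7 FPKM in wild type cells, and Tfe3 made up 79.5% and 71.9% of it. The remaining family gene, Tfec, which was named after its values were seen, stood at 2.31 FPKM in resistant cells and was listed at 0 in wild type cells. Neither Tfeb nor Tfe3 was 2-fold apart.

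Among the genes of the lysosomal membrane, Lamp1 and Lamp2 encode the heavily glycosylated proteins that line its inner face. Lamp1 stood at 168.8 FPKM in resistant and 181.9 FPKM in wild type cells, a log2 ratio of -0.11. Lamp2, whose product is also needed for fusion and for chaperone-mediated autophagy, stood at 47.0 FPKM in resistant and 25.0 FPKM in wild type cells, a log2 ratio of 0.88. The paralogues thus lay apart: Lamp1 was slightly lower and Lamp2 was 1.88 times as high in resistant cells, with a counting interval of 1.73 to 2.03. Npc1, the cholesterol exporter of the membrane, stood at 13.7 FPKM in resistant and 12.9 FPKM in wild type cells. The calcium channel gene Mcoln1 stood at 9.83 FPKM in resistant and 11.1 FPKM in wild type cells. For both genes the counting interval of the ratio spanned 1.

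Cd68 encodes a lysosomal glycoprotein that is best known from macrophages. The gene lies at chr11:69664213-69666153 on the minus strand (GRCm38). It stood at 5.48 FPKM in resistant and 1.17 FPKM in wild type cells, a log2 ratio of 1.58 and, as a plain FPKM ratio of 4.68, the highest of the 36. The values rest on about 108 and 24 fragments, and the counting interval was wide, 2.97 to 7.57. At a pseudocount of 5 its log2 ratio was 0.76, under the 2-fold line. Leukocyte and macrophage markers were looked at beside it, and 11 of 15 were under 1 FPKM in both libraries. Aif1, C1qa and Cd52 were listed at 0 in both, Adgre1 was listed at 0 in resistant and stood at 0.053 FPKM in wild type cells, and Csf1r stood at 0.031 and 0.034 FPKM. Of the markers under 1 FPKM, Ptprc stood at 0.23 FPKM in resistant cells and was listed at 0 in wild type cells, Laptm5 stood at 0.67 FPKM in resistant and 0.036 FPKM in wild type cells, on about 38 and 2 fragments, and Fcgr1 at 0.11 and 0.017 FPKM. C1qb stood at 0.14 FPKM in resistant cells and was listed at 0 in wild type cells. Itgam and Tyrobp were listed at 0 in resistant cells and stood at 0.0093 and 0.10 FPKM in wild type cells. The 4 markers at 1 FPKM or more were Mrc1 (7.31 FPKM in resistant and 3.74 FPKM in wild type cells), Lyz2 (1.53 and 0.36), Cd14 (25.7 and 36.8) and Fcgr3 (0.67 and 1.91), so they did not all differ in the same direction. The 15 markers summed to 36.4 FPKM in resistant and 43.1 FPKM in wild type cells. Cd14 made up 70.6% and 85.5% of these sums. Without it, a step not set in advance, the sums were 10.7 FPKM in resistant and 6.26 FPKM in wild type cells. Mrc1 made up 68.4% and 59.7% of these smaller sums, while Csf1r, Fcgr3, Adgre1, Itgam and Tyrobp were lower in resistant cells. Of these only Fcgr3 reached 1 FPKM in either library, and the others stood at about 0.10 FPKM or less, near the floor. The direction of the sum, opposite to Cd68 with Cd14 and the same without it, thus depended on 1 gene. The part of the markers in the Cd68 values was not tested. All 7 fibroblast markers were under 1 FPKM in both libraries. Epithelial markers were abundant, as the label of a pancreatic cancer line implies. Krt8 stood at 1722 FPKM in resistant and 1176 FPKM in wild type cells, Krt18 at 1864 and 1123 FPKM, and Krt19 at 1738 and 1332 FPKM. Cdh1 stood at 164 FPKM in resistant and 206 FPKM in wild type cells and Krt7 at 32.6 and 7.56 FPKM, while Epcam was under 1 FPKM in both, at 0.10 and 0.21.

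The 5 cathepsins are proteases of the lumen. The aspartic protease gene Ctsd stood at 144.4 FPKM in resistant and 124.6 FPKM in wild type cells. The cysteine protease gene Ctsl stood at 143.5 FPKM in resistant and 87.4 FPKM in wild type cells, a log2 ratio of 0.71. Ctsb stood at 114.4 FPKM in resistant and 93.2 FPKM in wild type cells. None of the 5 was 2-fold apart. The carboxypeptidase gene Ctsz had the highest ratio of the 5, 0.84, at 68.1 FPKM in resistant and 37.7 FPKM in wild type cells. Ctsa, the carboxypeptidase that also stabilises the neuraminidase and the beta-galactosidase of the lumen, stood at 40.6 FPKM in resistant and 39.2 FPKM in wild type cells, with a counting interval that spanned 1. The sum over the 5 was 511 FPKM in resistant and 382 FPKM in wild type cells. Ctsl and Ctsz made up more of it in resistant cells, at 28.1% and 13.3%, than in wild type cells, at 22.9% and 9.86%.

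Among the other proteins of the lumen were 3 of the 7 genes past the 2-fold line. Neu1 encodes the neuraminidase that removes sialic acid from glycoproteins and gangliosides and that depends on the Ctsa product. The gene lies at chr17:34931253-34935953 on the plus strand (GRCm38). It stood at 80.4 FPKM in resistant and 22.8 FPKM in wild type cells, a log2 ratio of 1.77 that ranked at the 97.8 percentile of all measured genes. Its FPKM ratio was 3.52, with a counting interval of 3.31 to 3.75. The level of Neu1 was thus several times as high in resistant cells while that of its partner gene Ctsa was nearly equal in both. Hexa (chr9:59539540-59565109, plus strand), the alpha subunit of the hexosaminidase that degrades the ganglioside GM2, stood at 14.8 FPKM in resistant and 4.77 FPKM in wild type cells, a log2 ratio of 1.46. Gaa (chr11:119267887-119285454, plus strand), the glycogen-degrading alpha-glucosidase, stood at 38.5 FPKM in resistant and 16.1 FPKM in wild type cells, a log2 ratio of 1.21. With each library rescaled to a sum of 1000000 the log2 ratio of Gaa was 0.95, under the 2-fold line.

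The remaining 4 lumen genes lay within 2-fold. Psap, the precursor of the saposins that present sphingolipids to their hydrolases, stood at 97.8 FPKM in resistant and 71.1 FPKM in wild type cells. Gla, the alpha-galactosidase, stood at 7.15 FPKM in resistant and 4.96 FPKM in wild type cells. Both had log2 ratios of about 0.45. Glb1, the beta-galactosidase often used as a marker of senescent cells, stood at 18.7 FPKM in resistant and 17.7 FPKM in wild type cells. The sterol carrier gene Npc2 stood at 43.4 FPKM in resistant and 39.3 FPKM in wild type cells. The Glb1 interval spanned 1, and that of Npc2 ran just above it, 1.05 to 1.16.

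The V-ATPase pumps protons into the lysosome through a membrane sector, V0, driven by a cytosolic sector, V1. Atp6v1h (chr1:5070018-5162529, plus strand), a regulatory V1 subunit, stood at 38.6 FPKM in resistant and 18.5 FPKM in wild type cells, a log2 ratio of 1.03, the lowest of the 7 past the line. With each library rescaled to a sum of 1000000, or the resistant library to the same upper quartile, it lay within 2-fold. Atp6v0d1, a V0 subunit, stood at 34.6 FPKM in resistant and 30.6 FPKM in wild type cells.

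**Figure D2:**
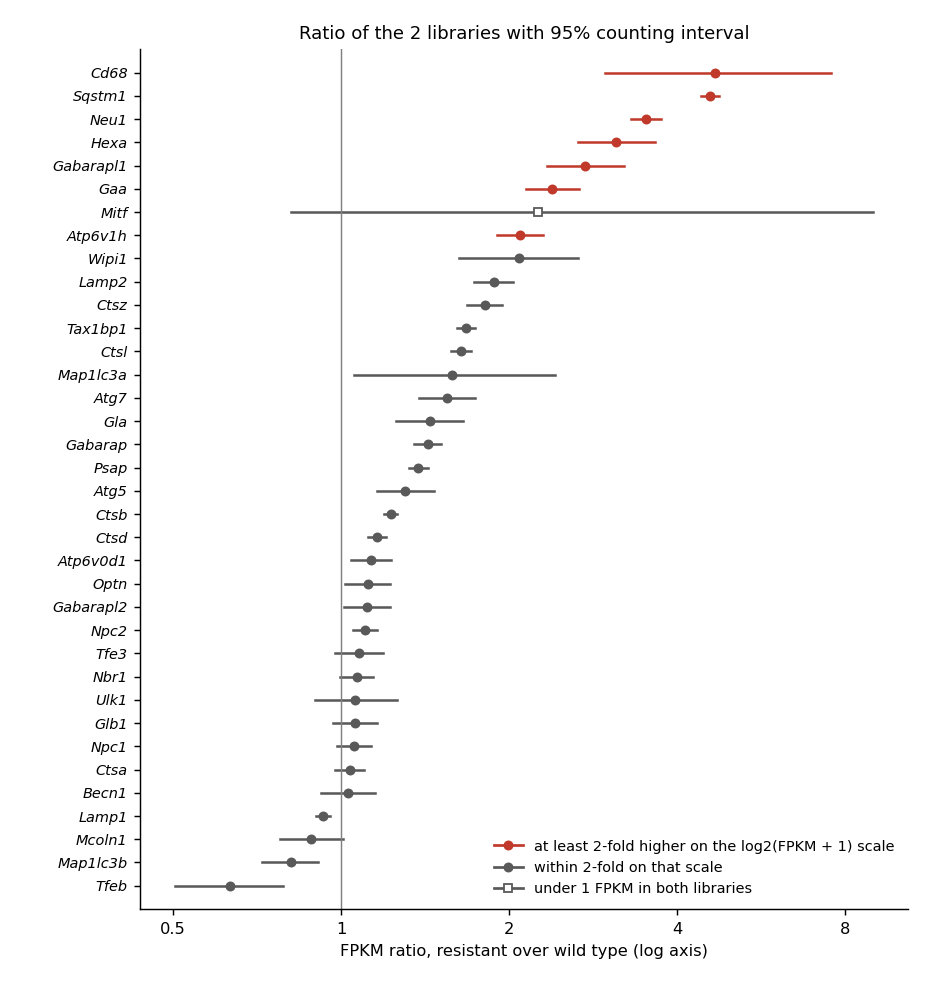
FPKM ratio of resistant over wild type cells (log axis) for the 36 genes, with 95% exact binomial counting intervals. Red marks the 7 genes at least 2-fold higher on the log2(FPKM + 1) scale, grey those within 2-fold, and the open square Mitf, which was under 1 FPKM in both libraries.

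The ATG8 family falls into an LC3 branch, here Map1lc3a and Map1lc3b, and a GABARAP branch. Map1lc3b was the one of the 5 that was lower in resistant cells, though Gabarapl2 was lower too with each library rescaled to a sum of 1000000. Map1lc3b, the usual marker of autophagosomes, stood at 37.6 FPKM in resistant and 46.3 FPKM in wild type cells, a log2 ratio of -0.29. Gabarapl1 (chr6:129533160-129542346, plus strand) stood at 67.4 FPKM in resistant and 24.6 FPKM in wild type cells, a log2 ratio of 1.42, with a counting interval of the FPKM ratio of 2.34 to 3.21. Gabarap was the most abundant member, at 217 FPKM in resistant and 151.9 FPKM in wild type cells, a log2 ratio of 0.51. Gabarapl2 stood at 26.2 FPKM in resistant and 23.5 FPKM in wild type cells, and Map1lc3a at 2.86 and 1.80 FPKM. The order of Map1lc3b and Gabarapl1 by level was therefore opposite in the 2 libraries. Gabarapl1 made up 19.2% of the family's summed level in resistant and 9.92% in wild type cells, and Map1lc3b made up 10.7% and 18.7%. Gabarap made up 61.9% in resistant and 61.2% in wild type cells.

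**Figure D3:**
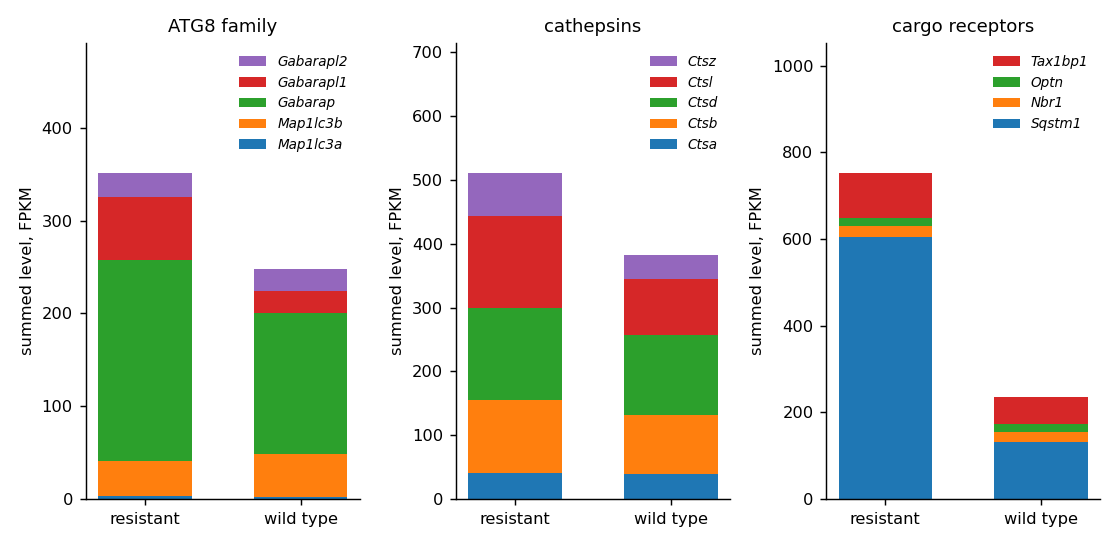
Stacked levels in FPKM of the ATG8 family, the 5 cathepsins and the 4 cargo receptors in resistant (left bar) and wild type cells (right bar). The receptor sum was 752 FPKM in resistant and 234 FPKM in wild type cells, with Sqstm1 as the largest segment in both bars.

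Of the genes that start autophagy and conjugate the ATG8 proteins, none of the 5 was past the 2-fold line, and their median log2 ratio was 0.35, equal to that of the 35. Ulk1, the initiating kinase that mTORC1 restrains, stood at 3.58 FPKM in resistant and 3.38 FPKM in wild type cells. Becn1, a subunit of the lipid kinase complex of autophagy, stood at 49.0 FPKM in resistant and 47.7 FPKM in wild type cells. Both counting intervals spanned 1. Wipi1, which binds the lipid made by that complex, stood at 8.37 FPKM in resistant and 4.02 FPKM in wild type cells. Its log2 ratio of 0.90 lay just under the line, though its plain FPKM ratio was 2.08, and at a pseudocount of 0.1 it passed. Atg7, the activating enzyme of both conjugation systems, stood at 17.3 FPKM in resistant and 11.2 FPKM in wild type cells. Atg5, part of the conjugate that lipidates LC3, stood at 12.8 FPKM in resistant and 9.81 FPKM in wild type cells.

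Sqstm1 encodes p62, a receptor that carries ubiquitinated cargo to ATG8 proteins and that also binds KEAP1, the inhibitor of the antioxidant factor NRF2, of which Sqstm1 is itself a known target. The gene lies at chr11:50199366-50210827 on the minus strand (GRCm38). It had the highest log2 ratio of the 35 genes, 2.19, at 605 FPKM in resistant and 132 FPKM in wild type cells, and ranked at the 98.6 percentile of all measured genes. The FPKM ratio was 4.59, with a counting interval of 4.42 to 4.76. It was also the most abundant of the 36 transcripts in resistant cells, whereas in wild type cells Lamp1 and Gabarap stood above it. Of the summed level of the 36 genes, 2343 FPKM in resistant and 1417 FPKM in wild type cells, Sqstm1 made up 25.8% and 9.31%. Without it the sums were 1738 FPKM in resistant and 1285 FPKM in wild type cells.

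The other 3 receptors stood much closer together. Tax1bp1, which shares ubiquitin binding with p62, stood at 103.8 FPKM in resistant and 62.0 FPKM in wild type cells, a log2 ratio of 0.73. Nbr1, the receptor nearest to p62 in domain structure, stood at 25.3 FPKM in resistant and 23.7 FPKM in wild type cells. Optn, a receptor in the removal of mitochondria and bacteria, stood at 18.5 FPKM in resistant and 16.6 FPKM in wild type cells. Sqstm1 made up 80.4% of the receptor sum in resistant and 56.3% in wild type cells.

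Reads of overlapping genes can touch some of these values, since no source used here states how shared fragments were assigned or whether the library kept strand. In the GENCODE M21 annotation 16 of the 36 genes share exon bases with another gene. Becn1 shares 43.9% of its exon bases with Cntd1 on the opposite strand, which stood at 0.31 FPKM in resistant and 0.078 FPKM in wild type cells. Ctsd shares 34.4% with Gm49369 on its own strand, which was listed at 0 in resistant and stood at 0.17 FPKM in wild type cells. For Sqstm1 the share was 17.3%, with Mrnip at 3.85 FPKM in resistant and 2.14 FPKM in wild type cells. Ctsb shares 12.8% with Fdft1, which was well expressed in both libraries at 44.8 FPKM in resistant and 46.6 FPKM in wild type cells. Gabarapl2 has 6 processed pseudogene copies with at least 90% identity over at least 300 bases, the highest of them at 0.452 FPKM in resistant cells. The authors' locus of Map1lc3b spans 210 rows of the table.

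Promoters were read for short sequence elements. As the CLEAR element is known from promoters of many lysosomal genes, its share in a list of such genes is no independent result. RefSeq promoter windows on GRCm38, from 250 bases before to 50 bases after a gene's start, were matched by symbol for 31 of the 36 genes. Npc1, Ctsb, Atp6v1h, Map1lc3a and Becn1 were not matched. The core of the CLEAR element, TCACGTGA, which reads the same on both strands, was in a window of 5 of the 31 genes, which is 16.1%. Among 8697 measured genes with a window 2.37% had it, and 1.12% of all 27025 symbols with a promoter. The 5 genes were Atp6v0d1, Ctsa, Ctsd, Gla and Mcoln1. Their stretches are shown because they hold the element of the MiT/TFE factors, each along the gene's own strand from 5′ to 3′ with the element in capitals.
Atp6v0d1, chr8:105566050-105566096, minus strand: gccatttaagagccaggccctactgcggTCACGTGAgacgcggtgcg
Ctsa, chr2:164833732-164833787, plus strand: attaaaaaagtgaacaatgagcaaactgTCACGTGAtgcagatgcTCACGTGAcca
Ctsd, chr7:142387891-142387954, minus strand: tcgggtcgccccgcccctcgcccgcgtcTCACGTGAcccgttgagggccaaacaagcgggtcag
Gla, chrX:134601165-134601255, minus strand: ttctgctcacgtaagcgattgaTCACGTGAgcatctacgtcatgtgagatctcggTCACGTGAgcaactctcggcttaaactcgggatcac
Mcoln1, chr8:3500445-3500508, plus strand: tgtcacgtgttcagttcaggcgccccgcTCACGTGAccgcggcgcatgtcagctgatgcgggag

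Set beside the levels, none of these 5 genes was among the 7 past the 2-fold line. Their log2 ratios were 0.17 for Atp6v0d1, 0.05 for Ctsa, 0.21 for Ctsd, 0.45 for Gla and -0.16 for Mcoln1. Ctsa and Gla each hold the element at 2 places. None of the 6 matched genes past the 2-fold line, all of the 7 but Atp6v1h, had it in the window, which says only that these letters are absent from these 300 bases.

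The shorter E-box CACGTG, which lies inside the CLEAR core, was in a window of 11 of the 31 genes, 35.5%, against 12.1% of measured genes and 8.09% of all symbols. This share is no independent result either, for the reason given for the CLEAR core. Lamp1 has 4 E-boxes before its start, at positions -61, -45, -28 and -15, and of the genes past the 2-fold line Gaa has 1. These stretches show the densest run of the element among the genes and the single match among the genes past the 2-fold line, with the E-box in capitals.
Lamp1, chr8:13159072-13159175, plus strand: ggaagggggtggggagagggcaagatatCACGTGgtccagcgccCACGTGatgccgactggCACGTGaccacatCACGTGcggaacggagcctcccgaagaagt
Gaa, chr11:119267795-119267856, plus strand: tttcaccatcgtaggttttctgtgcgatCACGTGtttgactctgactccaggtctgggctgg

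The core of the antioxidant response element, TGACNNNGC on either strand, was in a window of 7 of the 31 genes, 22.6%. It was in 16.9% of measured genes and 14.0% of all symbols. Read on the gene's own strand alone, it was in 5 of the 31, 16.1%, against 8.95% of measured genes and 7.29% of all symbols. Of the genes past the 2-fold line Hexa has it, at position -131 from the start, and it is shown for that reason. Sqstm1 has none in this window. The C/EBP-ATF response element TGATGNAAT, searched on both strands, was in none of the 31, against 0.506% of measured genes and 1.08% of all symbols.
Hexa, chr9:59539381-59539445, plus strand: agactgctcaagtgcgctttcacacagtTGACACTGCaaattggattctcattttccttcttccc

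Other genes of the same pathways were taken from 8 wider lists, 175 genes of which 159 were measured. At least 2-fold higher were 9 of the 159, 5.66%, and at least 2-fold lower were 8, 5.03%, both shares below those of all measured genes given above. Their median log2 ratio was 0.22, and 66.0% were above 0. A further 11 genes were higher and 2 lower by at least 2-fold in the plain FPKM ratio alone, without the pseudocount of 1. The matching share of all measured genes was not counted. With each library rescaled to a sum of 1000000 the median of the wider lists was -0.031, against -0.23 for all measured genes. There 2 of 157 genes were higher and 10 lower, against 5.17% and 12.8% of all measured genes. Most of the higher genes named below thus lay within 2-fold after that rescaling. With the deposited values on the log2(FPKM + 1) scale, the share on the higher side was 20.0% among the 35 genes above and lower in this larger group. At a pseudocount of 0.1 the counts were 8 of 35 and 20 of 159, both shares above the 10.8% of all measured genes. Both sets were chosen with earlier results of these data known.

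**Figure D4:**
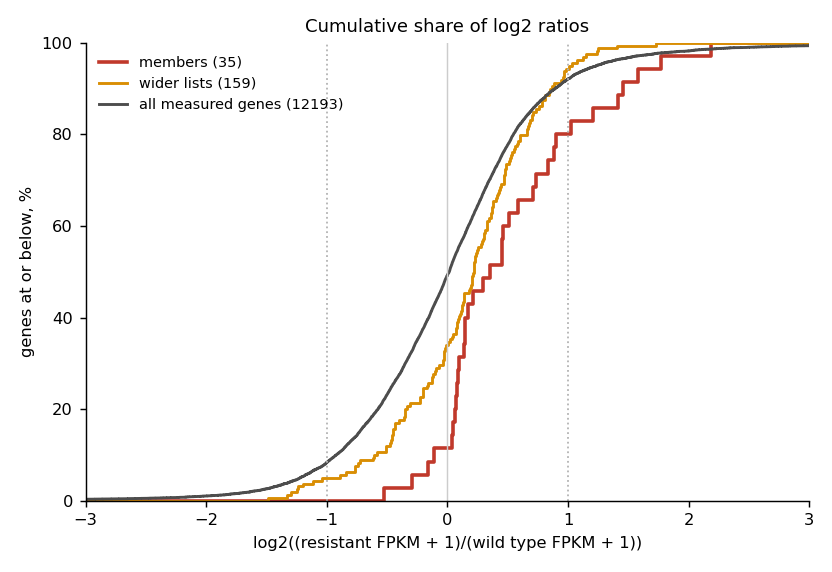
Cumulative share of genes by log2 ratio for the 35 measured lysosome and autophagy genes (red), the 159 measured genes of the wider lists (orange) and all 12193 measured genes (grey). Dotted lines mark 2-fold; 20.0% of the red, 5.66% of the orange and 7.90% of the grey genes lie to the right of the upper one.

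The wider lists of the lumen and of the V-ATPase had the highest medians, 0.35 over 38 enzymes and activators and 0.33 over 15 pump genes. Of the 38, 4 were at least 2-fold higher and 3 lower. The highest was Gm2a, the activator that lifts GM2 to hexosaminidase, at 28.3 FPKM in resistant and 10.1 FPKM in wild type cells. The sulfatase gene Arsb stood at 15.1 FPKM in resistant and 5.81 FPKM in wild type cells, and the carboxypeptidase gene Scpep1 at 81.2 and 36.1 FPKM. Lower were the hyaluronidase gene Hyal2, at 6.16 FPKM in resistant and 19.0 FPKM in wild type cells, the acid phosphatase gene Acp2, at 2.90 and 8.83 FPKM, and the nuclease gene Dnase2a, at 3.98 and 10.8 FPKM.

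Of the 15 pump genes, the V1 subunit gene Atp6v1g1 was at least 2-fold higher, at 109.4 FPKM in resistant and 45.5 FPKM in wild type cells. The V0 subunit gene Atp6v0a2 was at least 2-fold lower, at 5.02 FPKM in resistant and 11.4 FPKM in wild type cells. None of the 21 measured genes of membrane proteins, channels and transporters was past the 2-fold line on the log2(FPKM + 1) scale, with a median of 0.07. By the plain FPKM ratio, and named after their values were seen, Ostm1 was at 2.22, Slc17a5 at 2.09 and Slc36a1 at 0.41. Of 10 sorting genes, Nagpa, the enzyme that uncovers the mannose 6-phosphate tag, was at least 2-fold lower, at 3.03 FPKM in resistant and 7.71 FPKM in wild type cells. The sorting receptor gene Sort1, named after its values were seen, stood at 1.62 FPKM in resistant and 0.34 FPKM in wild type cells. Its plain FPKM ratio was 4.80, with a counting interval of 3.54 to 6.52, but its log2 ratio with the pseudocount of 1 was 0.97.

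In the list of the nutrient-sensing machinery on the lysosome, 2 of 23 measured genes were past the line on the higher and 2 on the lower side. These shares, 8.7% each, were near the 7.90% and 8.37% of all measured genes. Folliculin, Flcn, a GTPase-activating protein through which mTORC1 acts on TFE3 and TFEB, stood at 1.96 FPKM in resistant and 5.80 FPKM in wild type cells, a log2 ratio of -1.20. The mTORC1 subunit gene Mlst8 stood at 1.70 FPKM in resistant and 5.36 FPKM in wild type cells. Sesn2, a leucine sensor that restrains mTORC1, stood at 5.39 FPKM in resistant and 2.12 FPKM in wild type cells, and Tfec, a gene of this list too and so also among the 9 higher of the 159, was the other higher gene. Of 25 genes of autophagy initiation and conjugation, Atg16l2 was at least 2-fold higher, at 5.22 FPKM in resistant and 1.85 FPKM in wild type cells, and Wdr45 at least 2-fold lower, at 3.62 and 10.4 FPKM. None of 13 further receptors was 2-fold apart. Of 14 fusion genes the tether subunit gene Vps11 was higher, at 16.8 FPKM in resistant and 7.85 FPKM in wild type cells. Its log2 ratio of 1.005 lay barely past the line.

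**Figure D5:**
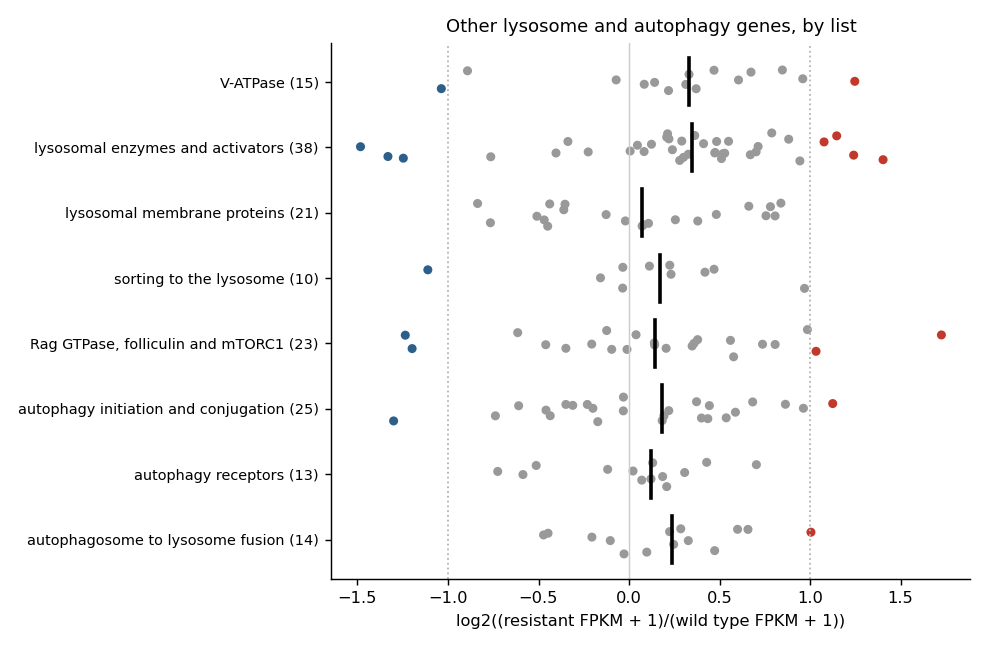
log2 ratio of each measured gene of the 8 wider lists, with the number measured in brackets and a black bar at the median; dots are spread vertically for legibility. Red dots are at least 2-fold higher and blue dots at least 2-fold lower in resistant cells, and 142 of the 159 dots lie between the dotted lines.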

How the data were processed

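RNA of KPC2 cells was sequenced, 1 library per group. HISAT2, StringTie and the GRCm38 build are named, per the submitters' processing notes, without role or version. The deposited table gives a value per gene and library, with no unit in its header. It was read as FPKM made by the authors, since values are not whole and low values times transcript length less 160 bases came within 0.1 of whole fragments for 94.1% of 1672 low values in the resistant and 93.2% of 1623 in the wild type library. Per the file headers, the authors also deposited for every row a log2 fold change, a test statistic (a score), a p-value and a q-value. These are quoted only as theirs.

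Left out were 13 rows with an authors' status of failed or too deep, and rows under the same symbol were added up. No test between conditions was run, as each group has 1 library, and lists are described by counts beside those of all measured genes. The genes, the wider lists and the markers were chosen with earlier results of these data known. Named from the wider lists were genes at least 2-fold apart with a higher value of at least 5 FPKM, at most 3 per list and direction. Tfec, Sort1, Ostm1, Slc17a5 and Slc36a1 fall outside that rule and were named after their values were seen. Other settings tried were pseudocounts, level filters, scalings, 1 row per symbol, a 4-fold threshold and 1 strand for motifs. Rescaling to a sum of 1000000, the E-box and leaving out Cd68 were alternatives chosen after seeing the data. The marker sum without Cd14 was not set in advance. Gene positions and lengths came from GENCODE M21 on GRCm38, promoter windows from RefSeq (GRCm38). Copies were sought with BLAST 2.17.0+. Scripts ran in Python 3.11.15 with scipy 1.17.1, pandas 2.3.3, numpy 2.4.6 and, for figures, matplotlib 3.10.9. Of the steps, the 2-fold call, the fit of the fragment steps and the counting intervals were tested on simulated data. The result of 1 gene of the wider lists is not reported here.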

Additional observations from a re-analysis of the deposited data

How the results depend on the processing

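The count of the 36 genes at least 2-fold higher was between 5 and 8 under every alternative except the 4-fold threshold, where it was 1, Sqstm1. The higher share of all measured genes was 1.8% at 4-fold and between 3.51% and 10.8% under the others. None of the 36 was lower under any alternative run. Their median log2 ratio was 0.11 with each library rescaled to a sum of 1000000 and between 0.26 and 0.38 under the others. The wider lists depended more on the settings. At a pseudocount of 0.1, 20 of 159 genes were higher and 10 lower, against 10.8% and 12.7% of all measured genes. Their higher share was then above that of all measured genes, unlike in the main setting. At a pseudocount of 5, 3 were higher and 1 lower, against 3.51% and 2.44%. At 4-fold 0 were higher and 0 lower, against 1.8% and 1.05%. With each library rescaled to a sum of 1000000, 2 were higher and 10 lower, against 5.17% and 12.8%. There the median of the wider lists turned to -0.031. The cause of these shifts was not tested. The E-box in place of the CLEAR core gave 35.5% of promoters in place of 16.1%. No paired analysis was possible because each group has 1 library. With 1 library per group the spread between cultures is unknown, so none of these differences is shown to exceed it. Counting error limits mainly Mitf, Cd68 and Map1lc3a, which rest on the fewest fragments.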
